A study of Homo sapiens with 5 samples.

Results

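The 5 genes ZBTB20, PROX1, NR3C2, CBLN2 and MEIS2 were followed through human brain organoids grafted into the mouse hippocampus (HIP) or prefrontal cortex (PFC). They are the human orthologues of genes that mark these regions in the mouse brain, and they were chosen by name, from 36601 genes listed in the human-reference matrices of the grafts. Their values were read by cell class in the human cells, and those of the mouse genes of the same symbol were read in the host cells captured with the grafts. The study asked whether the region that receives an organoid shapes the human cells in it.

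Organoids were grown from the human embryonic stem cell line H9 for 42 days and were either dissociated at that point (D0) or grafted. Grafted brain organoids (GBOs) were recovered at 2 or 4 months post transplantation (2MPT or 4MPT), which gave the libraries HIP_2MPT, PFC_2MPT, HIP_4MPT and PFC_4MPT. The labels give the cell line as wild type, whereas the methods name an H9 line with channelrhodopsin and EYFP at the AAVS locus, so the cells share 1 genetic background. The hosts were young adult mice, named as SCID-Beige in the study's results and as SCID in its methods. SCID mice lack T and B cells but keep their microglia, and SCID-Beige mice also have impaired natural killer cells. The EYFP-positive tissue was dissected with the host cells in it, the brains of several mice were pooled into the graft libraries, and each condition is 1 library of 10x Genomics 3' counts.

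ZBTB20 is a zinc finger repressor known for specifying the CA1 field and the medial pallium, and it also acts in astrocyte formation. PROX1 is a homeodomain factor that marks dentate granule neurons, and it is also present in interneurons of the caudal ganglionic eminence and in early oligodendrocyte lineage cells. NR3C2 encodes the mineralocorticoid receptor, a ligand-activated transcription factor that is abundant in hippocampal neurons. MEIS2 is a homeodomain factor of the TALE class that acts with PBX proteins in the ganglionic eminences and in retinoic acid dependent patterning. CBLN2 is a secreted synaptic organiser that bridges neurexins and postsynaptic receptors and is enriched in the prefrontal cortex.

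After filtering, 29505 human cells were kept from the grafts, with 5952 to 8363 cells and a median of 1253 to 2759 unique molecular identifiers (UMIs) per cell in each library, beside 4885 D0 cells with a median of 9847 UMIs. The libraries differed in quality, since mixed human and mouse barcodes made up 16.98% of the barcodes of PFC_4MPT and 1.084% of those of PFC_2MPT, and PFC_4MPT had the highest median mitochondrial share, at 7.31%. The libraries shared at most 0.289% of their cell barcodes with each other. All levels are given as CPM, the UMIs of a gene per 1000000 UMIs of the same cells, with 95% exact Poisson intervals that cover counting error only and say nothing of the spread between animals. The counts come from the 3' end without correction for transcript length, so levels are compared between cells and not between genes. In sums over all human cells, fewer cells of a type and less RNA per cell cannot be told apart. D0 was processed with another software version, dissociated with another enzyme and not grafted, which cannot be told apart, so its values stand beside those of the grafts without a test.

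Cell classes were built by clustering, and named from marker genes. ZBTB20 and MEIS2 were among the genes used for the clustering, so their differences between classes are a description. Neuron-like cells comprised cells near intermediate progenitors and newborn neurons, inhibitory-neuron-like cells and the other neurons. Progenitor-like cells comprised radial-glia-like and cycling cells. Cluster 10 of the cycling cells ranked second for inhibitory neuron markers. Its cells stayed in the fits of all human cells without the inhibitory-neuron-like cells. Astrocyte-like cells formed clusters 7, 15 and 16. Cluster 6, led by GSX1, OLIG1, OLIG2 and EGFR, and cluster 12, led by CDC6 and E2F1, remained unnamed. Cluster 12 was left unnamed as shallow for its median of 3126 UMIs, judged mainly against D0, which gave 597 of its 931 cells.

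ZBTB20 was widespread in the grafts and was lowest in PFC_2MPT and highest in HIP_4MPT. Over all human cells its level was 1068 CPM in HIP_2MPT (interval 1049 to 1088), 946.8 CPM in PFC_2MPT (931.4 to 962.4), 1868 CPM in HIP_4MPT (1850 to 1887) and 1058 CPM in PFC_4MPT (1042 to 1074), and it was 78.24 CPM in D0. The HIP and PFC libraries overlapped, as HIP_2MPT and PFC_4MPT had overlapping intervals, with HIP_4MPT standing above the other 3 grafts. The gene, ENSG00000181722, spans 832.8 kb of chromosome 3 (chr3:114314500-115147292, minus strand, GRCh38).

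Over the 4 grafts pooled, which differ in level and in the mix of classes, ZBTB20 was highest in astrocyte-like cells (1665 CPM), followed by cluster 12 (1632 CPM), radial-glia-like cells (1551 CPM), cluster 6 (1520 CPM), intermediate progenitor and newborn-neuron-like cells (1515 CPM) and cycling cells (1505 CPM). Each of these overlapped its neighbour in that order within counting error. Inhibitory-neuron-like cells (1279 CPM), other neurons (1121 CPM) and oligodendrocyte-lineage-like cells (677.4 CPM) were each below the class before them beyond counting error. The order was not the same in each library. In HIP_4MPT the astrocyte-like cells (1930 CPM) stood below cluster 12 (2262 CPM), inhibitory-neuron-like cells (2248 CPM), intermediate progenitor and newborn-neuron-like cells (2227 CPM), cycling cells (2123 CPM) and radial-glia-like cells (2079 CPM). PFC_4MPT, in which ZBTB20 was lower than in HIP_4MPT in each class, gave 1082 of the 1358 inhibitory-neuron-like cells. Each of these 9 classes thus held the transcript. Human ZBTB20 UMIs in host mouse cells, a gauge of free human RNA, numbered 76 and 303 in the HIP libraries at 2MPT and 4MPT and 18 and 122 in the PFC libraries, over 4961 host cells, beside 84222 in the 29505 human cells.

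Within the astrocyte-like cells the clusters differed more than the classes did. Cluster 15, led by KIRREL3 and ARAP2, held 3285 CPM of ZBTB20 in PFC_2MPT, 4598 CPM in HIP_4MPT and 3209 CPM in PFC_4MPT. Cluster 7, led by MT1E and C1QL2, held 1376 CPM in HIP_2MPT, 1305 CPM in PFC_2MPT, 1706 CPM in HIP_4MPT and 1173 CPM in PFC_4MPT. Cluster 16, led by the synapse regulator SPARCL1, held 1271 CPM in HIP_4MPT and 736.7 CPM in PFC_4MPT. Cluster 15 was above cluster 7 in each of the 3 libraries where both were read, although its 61 to 120 cells in each of them were few. It was also shallower, with a median of 1855 UMIs per cell against 3030.5 in cluster 7, D0 cells included. The part of depth in this difference was not tested.

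At 4MPT the PFC graft was below the HIP graft for ZBTB20 in each of 9 classes, with ratios from 0.386 to 0.706 whose counting intervals all excluded 1. At 2MPT the classes divided, with 4 of 6 higher in PFC, 1 lower and 1 whose interval held 1. The lower class was the other neurons, at 650.4 CPM in PFC_2MPT and 1046 CPM in HIP_2MPT. Progenitor-like cells went the other way at 2MPT, with 1458 CPM in PFC_2MPT and 1090 CPM in HIP_2MPT (ratio 1.337), and then stood at 1021 CPM in PFC_4MPT and 2114 CPM in HIP_4MPT. With 1 library at each point these ratios compare libraries, not conditions.

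MEIS2 was carried by all classes, and over the pooled grafts it stood highest in neurons. Its level over all human cells was 641.6 CPM in HIP_2MPT (interval 626.9 to 656.6), 1215 CPM in PFC_2MPT (1198 to 1233), 1544 CPM in HIP_4MPT (1527 to 1561) and 798.4 CPM in PFC_4MPT (785.0 to 812.0), beside 144.6 CPM in D0. The 2 HIP libraries were thus the lowest and the highest, and the PFC libraries lay between them. MEIS2, ENSG00000134138, spans 212.1 kb of chromosome 15 (chr15:36889204-37101299, minus strand).

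The order of sites for MEIS2 turned between the stages. At 2MPT, PFC was above HIP in 5 of 6 classes, with ratios from 1.25 to 2.08 over the 6 classes. At 4MPT, PFC was below HIP in 8 of 9 classes, with ratios from 0.375 to 1.34, and the oligodendrocyte-lineage-like cells were the class whose interval held 1 (ratio 1.337, interval 0.9237 to 1.952). In the other neurons the level was 623.4 CPM in HIP_2MPT, 1297 CPM in PFC_2MPT, 2191 CPM in HIP_4MPT and 1110 CPM in PFC_4MPT. Between the stages MEIS2 was 3.514 times as high at 4MPT as at 2MPT in these neurons of the HIP grafts, whereas in the PFC grafts it was lower at 4MPT in 7 of 7 classes.

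Astrocyte-like cells took part in the same turn with a smaller range. Their MEIS2 level was 899.5 CPM in HIP_2MPT, 1121 CPM in PFC_2MPT, 935.8 CPM in HIP_4MPT and 560.0 CPM in PFC_4MPT. Over the pooled grafts the other neurons (1331 CPM) and the intermediate progenitor and newborn-neuron-like cells (1313 CPM) overlapped within counting error at the top, and inhibitory-neuron-like cells (558.9 CPM) and oligodendrocyte-lineage-like cells (271.8 CPM) stood at the bottom. This order was that of the pool. In HIP_2MPT astrocyte-like cells (899.5 CPM) stood above the other neurons (623.4 CPM), and in PFC_4MPT inhibitory-neuron-like cells (506.3 CPM) stood above cycling cells (365.6 CPM) and cluster 6 (351.6 CPM). MEIS2 is known from neurons of the lateral ganglionic eminence, and in these grafts the inhibitory-neuron-like class, which carries GAD1, GAD2 and DLX genes, held less of it, in CPM, than the other neurons of the same library.

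**Figure D1:**
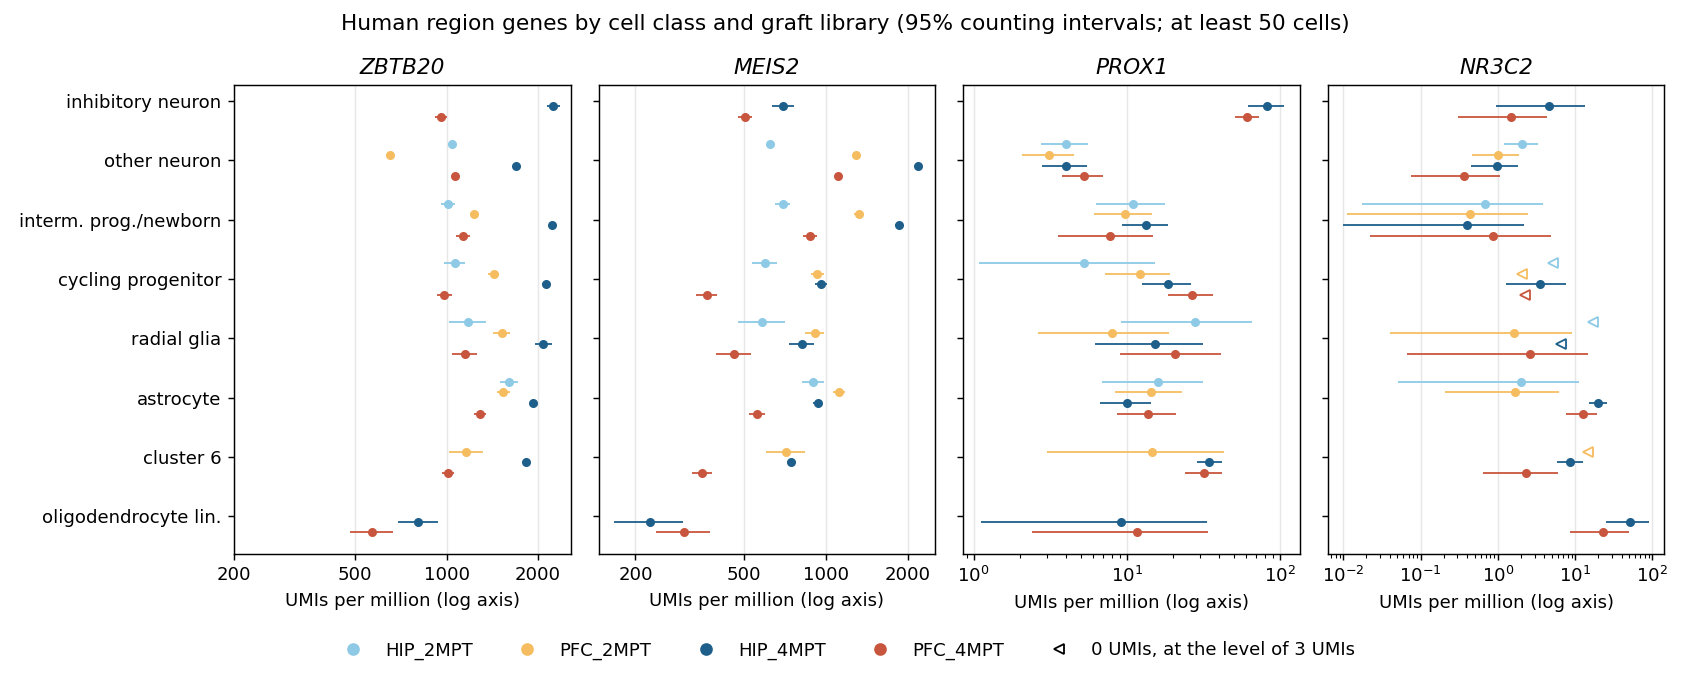
Levels of ZBTB20, MEIS2, PROX1 and NR3C2 (CPM of the class, log axis) in 8 human cell classes of the 4 graft libraries, for classes of at least 50 cells. Bars are 95% counting intervals and an open triangle marks a class with 0 UMIs, placed at the level of 3 UMIs. At 4MPT PROX1 is highest in the inhibitory-neuron-like class, which had too few cells to be shown at 2MPT. NR3C2 is highest in the oligodendrocyte-lineage-like and astrocyte-like classes at 4MPT, and ZBTB20 and MEIS2 are present in every class.

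**Figure D2:**
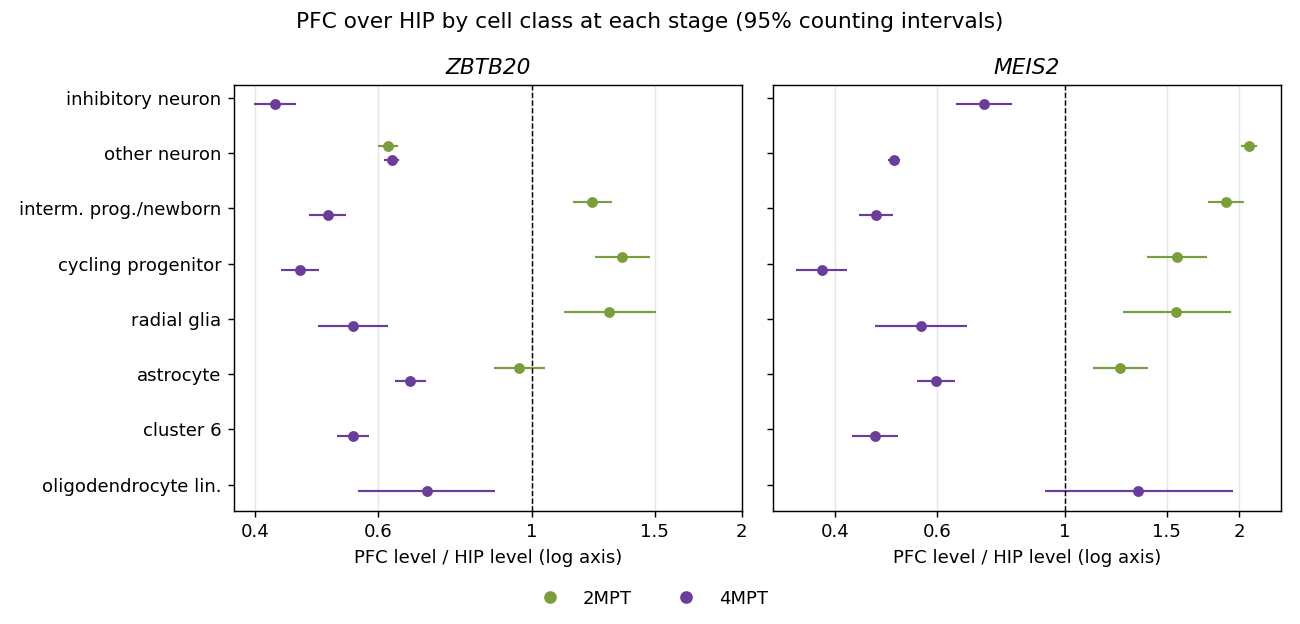
Ratio of the PFC to the HIP level of ZBTB20 and MEIS2 in human cell classes at 2MPT and at 4MPT, on a log axis with 95% counting intervals. The line at 1 marks equal levels. Most MEIS2 ratios lie above 1 at 2MPT and below 1 at 4MPT, and each ZBTB20 ratio at 4MPT lies below 1.

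PROX1 was scarce, higher in both 4MPT libraries, and at its highest pooled level in inhibitory-neuron-like cells and cluster 6. Over all human cells it was read at 6.344 CPM in HIP_2MPT (71 UMIs), 6.541 CPM in PFC_2MPT (99 UMIs), 14.77 CPM in HIP_4MPT (317 UMIs) and 17.79 CPM in PFC_4MPT (300 UMIs), beside 2.488 CPM in D0 (139 UMIs). Both 4MPT libraries were above both 2MPT libraries with no overlap, and the 2 sites overlapped. PROX1, ENSG00000117707, spans 58.3 kb of chromosome 1 (chr1:213983181-214041510, plus strand), and part of it overlaps PROX1-AS1 on the other strand.

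Pooled over the grafts, PROX1 stood at 65.69 CPM in inhibitory-neuron-like cells (interval 56.42 to 76.05), at 33.34 CPM in cluster 6 and at 17.33 CPM in cycling cells, each below the last beyond counting error. The classes after these overlapped their neighbours, from cluster 12 at 15.37 CPM down to the other neurons at 4.053 CPM. This order was that of the pool, to which inhibitory-neuron-like cells and cluster 6 gave cells mostly at 4MPT. At 4MPT cycling cells stood at 18.53 CPM in HIP and 26.59 CPM in PFC. Cluster 6 stood at 34.75 CPM in HIP and 32.13 CPM in PFC, so in PFC it was close to cycling cells. Inhibitory-neuron-like cells held 22.7% of the PROX1 UMIs in 4.6% of the cells, cluster 6 held 173 of 787 UMIs in 5.4%, and the other neurons held 17.9% in 63.4%. The other neurons had the lowest pooled level among the classes, with an interval that overlapped that of the oligodendrocyte-lineage-like cells (10.3 CPM, 5 UMIs). Intermediate progenitor and newborn-neuron-like cells, which are also not inhibitory, stood at 10.93 CPM. Whether any of these cells were dentate granule neurons was not tested.

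The inhibitory-neuron-like class itself changed in size with the stage. It numbered 12 and 18 cells at 2MPT in HIP and PFC, with 0 and 2 PROX1 UMIs, and 246 and 1082 cells at 4MPT, with 54 and 123 PROX1 UMIs. Its share of all PROX1 UMIs went from 0% to 17.0% in the HIP grafts and from 2.02% to 41.0% in the PFC grafts. Cluster 6 went from 28 and 63 cells at 2MPT in HIP and PFC to 878 and 625 cells at 4MPT, and its share of PROX1 UMIs was 4.23%, 3.03%, 35.3% and 18.3% in the order HIP_2MPT, PFC_2MPT, HIP_4MPT and PFC_4MPT. Within the other neurons PROX1 was 3.983 CPM in HIP_2MPT and 3.988 CPM in HIP_4MPT (ratio 1.001, interval 0.6091 to 1.652), and it was 3.108 CPM in PFC_2MPT and 5.234 CPM in PFC_4MPT (ratio 1.684, interval 1.023 to 2.815).

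Between the sites, the ratio of PFC to HIP for PROX1 at 4MPT was 1.204 in all human cells (interval 1.025 to 1.415) and 1.534 in the whole of the neuron-like cells (1.212 to 1.945), whose inhibitory-neuron-like members numbered 246 in HIP and 1082 in PFC. Within the single classes that make up the neuron-like and other cells the interval held 1 throughout, over 4 classes at 2MPT and 7 at 4MPT with enough UMIs for a ratio. In inhibitory-neuron-like cells at 4MPT the level was 82.29 CPM in HIP and 61.12 CPM in PFC. In cluster 6 at 4MPT it was 34.75 CPM in HIP and 32.13 CPM in PFC. Human PROX1 UMIs in host mouse cells, a gauge of free human RNA, numbered 1, 0, 4 and 0 in the order HIP_2MPT, PFC_2MPT, HIP_4MPT and PFC_4MPT.

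**Figure D3:**
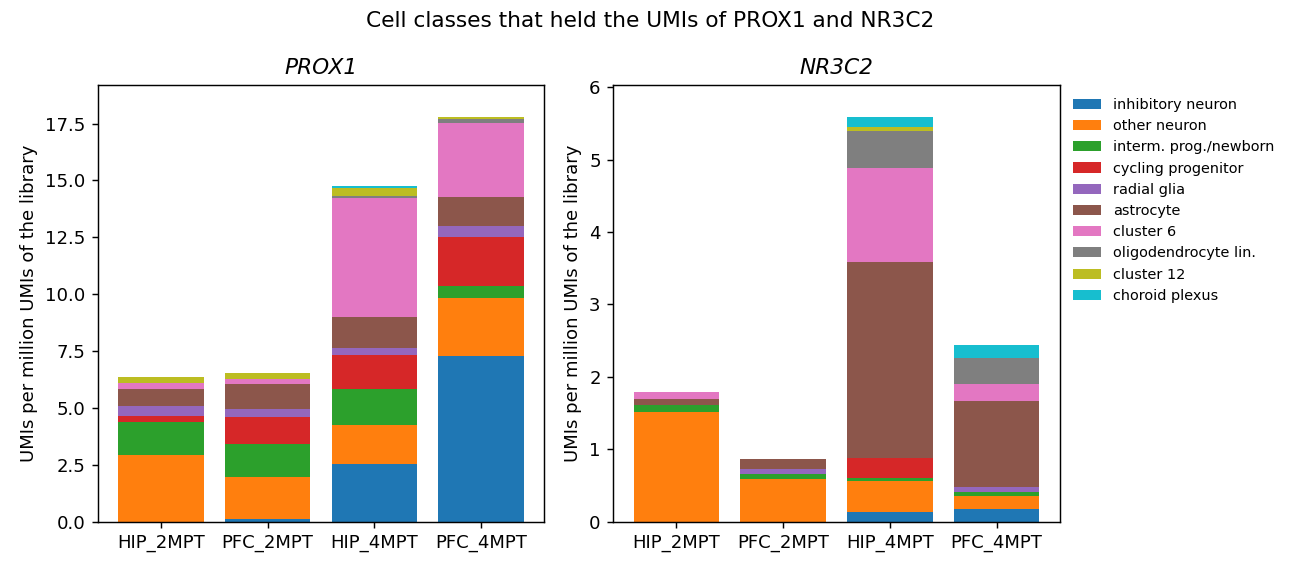
PROX1 and NR3C2 UMIs in CPM of the whole library, stacked by human cell class, for the 4 graft libraries. The 4MPT bars are taller for both genes. PROX1 gains in inhibitory-neuron-like cells and cluster 6, and NR3C2 in astrocyte-like cells.

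NR3C2 was rare at 2MPT and was read mainly in glia at 4MPT, although it is best known from hippocampal neurons. Over all human cells its level was 1.787 CPM in HIP_2MPT (20 UMIs), 0.8589 CPM in PFC_2MPT (13 UMIs), 5.592 CPM in HIP_4MPT (120 UMIs) and 2.431 CPM in PFC_4MPT (41 UMIs). The interval of HIP_4MPT, from 4.636 to 6.687 CPM, lay above those of the other 3 grafts, and D0 stood at 1.772 CPM. NR3C2, ENSG00000151623, spans 365.9 kb of chromosome 4 (chr4:148078762-148444698, minus strand).

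In astrocyte-like cells NR3C2 had 1 UMI in HIP_2MPT (1.994 CPM), 2 UMIs in PFC_2MPT (1.691 CPM), 58 UMIs in HIP_4MPT (19.97 CPM) and 20 UMIs in PFC_4MPT (12.61 CPM). The 4MPT levels were above both 2MPT levels, although the counting intervals of HIP_2MPT, with its 1 UMI, and PFC_4MPT overlapped. Between the sites at 4MPT the ratio of PFC to HIP was 0.6316 (interval 0.3598 to 1.066). Neuron-like cells went from 1.846 and 0.8833 CPM at 2MPT in HIP and PFC to 1.043 and 0.6149 CPM at 4MPT, on 7 to 18 UMIs per library. Astrocyte-like cells held 41.8% of all NR3C2 UMIs in 6.95% of the graft cells.

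The NR3C2 levels read in the astrocyte-like clusters differed. At 4MPT cluster 16 held 36.51 CPM in HIP and 18.35 CPM in PFC, cluster 15 held 38.0 and 57.72 CPM, and cluster 7 held 12.08 and 2.91 CPM. These clusters shared 58 UMIs in HIP_4MPT and 20 UMIs in PFC_4MPT. The PFC values therefore rest on few UMIs each, and differences between the sites within a cluster were not tested. Cluster 16 numbered 10 and 1 cells at 2MPT in HIP and PFC and 164 and 132 cells at 4MPT, so the makeup of the astrocyte-like class moved with the stage as well. Among classes of at least 50 cells the oligodendrocyte-lineage-like cells had the highest pooled level, 35.0 CPM (interval 20.39 to 56.05), from 17 UMIs that were all read at 4MPT, 11 in HIP and 6 in PFC. In D0 the choroid-plexus-like cells held 61 of 99 NR3C2 UMIs (11.67 CPM), a class with 12 cells and 6 NR3C2 UMIs in the grafts, 3 of them in 1 cell of PFC_4MPT.

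CBLN2 was close to absent from the counts. It had 0 UMIs in HIP_2MPT, 5 UMIs in PFC_2MPT (0.3303 CPM), 4 UMIs in HIP_4MPT (0.1864 CPM) and 8 UMIs in PFC_4MPT (0.4744 CPM). A count of 0 in HIP_2MPT allows up to 0.268 CPM at the level of 3 UMIs, so the libraries overlapped. At 4MPT the ratio of PFC to HIP was 2.545 with an interval from 0.6818 to 11.55, and a difference between sites was not detectable at this depth. Of the 17 UMIs, 15 were in neuron-like cells and 0 in astrocyte-like cells. D0 had 47 UMIs (0.8413 CPM). CBLN2, ENSG00000141668, spans 101.8 kb of chromosome 18 (chr18:72536680-72638521, minus strand).

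The effect of the site was tested over the 4 graft libraries with edgeR's quasi-likelihood test on UMI sums, with the stage as a covariate, so that the HIP and PFC libraries of both stages serve as replicates. Of the 5 genes, 4 passed the filter on low counts and CBLN2 did not. None of the 4 passed a Benjamini-Hochberg adjusted p of 0.05 in all human cells, where 0.0827% of all genes tested passed, in neuron-like cells (0.15% of all genes) or in astrocyte-like cells (0.201% of all genes). The count was also 0 at an unadjusted p under 0.05 in edgeR and 0 at an adjusted p under 0.05 in DESeq2, in each of the 3 sets of cells. The design has 1 residual degree of freedom from 4 libraries.

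The fitted log2 difference of PFC minus HIP over all human cells was -0.45 for ZBTB20 (SE 0.36, edgeR adjusted p = 1.0), 0.03 for MEIS2 (SE 0.39, adjusted p = 1.0), 0.21 for PROX1 (SE 0.39, adjusted p = 1.0) and -1.08 for NR3C2 (SE 0.54, adjusted p = 1.0). The NR3C2 difference was the largest of the 4 and had an unadjusted p of 0.052. Fits without 1 library dropped the stage, so differences between the stages enter their values. In these fits the NR3C2 difference was -0.02 without HIP_4MPT and -2.10 without PFC_4MPT, and the ZBTB20 difference was between -0.84 and -0.01. In neuron-like cells the differences were -0.57 for ZBTB20, 0.04 for MEIS2, 0.32 for PROX1 and -0.87 for NR3C2. In astrocyte-like cells they were -0.31, -0.20, 0.24 and -0.60 in the same order. Over all human cells the levels of ZBTB20 and NR3C2 were lower in PFC than in HIP at both stages. The ratio of PFC to HIP was 0.8862 at 2MPT and 0.5662 at 4MPT for ZBTB20, and for NR3C2 it was 0.4806 at 2MPT (interval 0.2197 to 1.015) and 0.4348 at 4MPT (interval 0.2972 to 0.6245). The MEIS2 difference near 0 is the mean of 2 stages with opposite orders, as the ratios above show, and its sign turned when the stage was left out of the fit (-0.08).

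The effect of the stage was tested as 4MPT minus 2MPT, with the HIP and PFC libraries of a stage as replicates. Over all human cells PROX1 rose by 1.40 on the log2 scale (SE 0.29, edgeR adjusted p = 0.0357), and it was 1 of 4 tested genes called where 2.49% of all genes passed. NR3C2 differed by 1.68 (SE 0.54, adjusted p = 0.169), ZBTB20 by 0.58 (SE 0.30, adjusted p = 0.42) and MEIS2 by 0.38 (SE 0.37, adjusted p = 0.731). The PROX1 call was lost without HIP_4MPT (1.58, adjusted p = 0.113), without PFC_4MPT (1.21, adjusted p = 0.254) and without the inhibitory-neuron-like cells (1.00, adjusted p = 0.12). NR3C2 was called over all human cells without HIP_2MPT (2.26, adjusted p = 0.0208) and with no filter on low counts (1.70, adjusted p = 0.00776).

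In astrocyte-like cells NR3C2 rose by 3.21 on the log2 scale between the stages (SE 0.67, edgeR adjusted p = 0.0214), 1 of 4 tested genes called where 3.06% of all genes passed. This value starts from 3 UMIs at 2MPT. The gene passed the filter on low counts only through its 4MPT libraries, the group in which it was then called higher. The call is therefore not independent of the filter. The call was lost under DESeq2 (3.25, adjusted p = 0.116), without PFC_2MPT (3.1, adjusted p = 0.0682) and without HIP_4MPT (2.80, adjusted p = 0.291). Astrocyte markers moved with it, since the summed level of 8 astrocyte markers in these cells was 1126.8 and 1270.6 CPM at 2MPT in HIP and PFC and 2911.0 and 2681.4 CPM at 4MPT, and summed oligodendrocyte-lineage markers went from 59.8 and 32.1 CPM to 269.6 and 257.9 CPM. The astrocyte-like cells of HIP_2MPT also held 1862.8 CPM of 6 general neuron markers. These markers summed to 708.4 CPM in PFC_2MPT, 759.9 CPM in HIP_4MPT and 807.8 CPM in PFC_4MPT. The part of all these markers in the result was not tested.

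In neuron-like cells none of the 4 genes was called between the stages by edgeR, where 0.898% of all genes passed, with 2 at an unadjusted p under 0.05 and 1 called by DESeq2. PROX1 differed by 1.45 (SE 0.34, edgeR adjusted p = 0.0873; DESeq2 1.46, adjusted p = 0.0353), ZBTB20 by 0.71 (SE 0.32, edgeR adjusted p = 0.381), MEIS2 by 0.68 (SE 0.41, adjusted p = 0.543) and NR3C2 by -0.64 (SE 0.62, adjusted p = 0.739). Inhibitory neuron markers moved with the stage in these cells, with a summed level of 7 markers of 4.3 CPM in HIP_2MPT, 16.9 CPM in PFC_2MPT, 168.0 CPM in HIP_4MPT and 562.6 CPM in PFC_4MPT, and SLC32A1 and DLX6 at 0 in HIP_2MPT. Without the inhibitory-neuron-like cells the PROX1 difference in neuron-like cells was 0.34 (edgeR adjusted p = 0.749), and the level of the pooled neuron-like cells was 5.26 CPM. PROX1 was called in neuron-like cells without HIP_4MPT (1.77, adjusted p = 0.0448), with no filter on low counts (1.45, adjusted p = 0.00292), and with the graft site as a block (1.42, adjusted p = 0.0423).

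**Figure D4:**
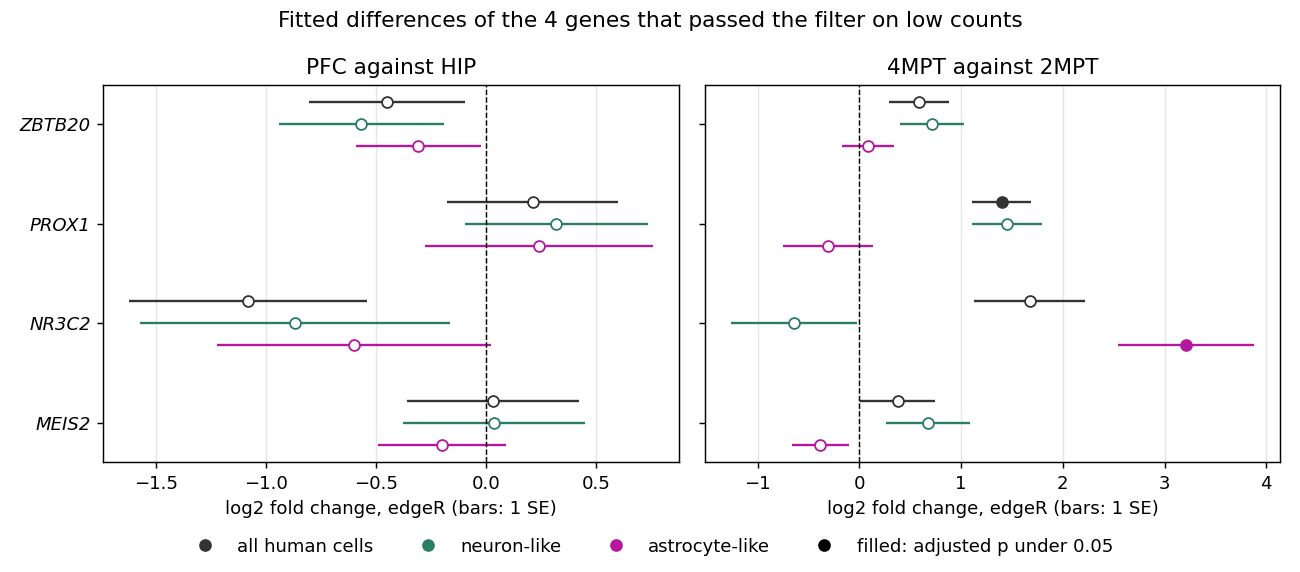
Fitted log2 differences from edgeR for ZBTB20, MEIS2, PROX1 and NR3C2, for PFC minus HIP and for 4MPT minus 2MPT, in all human, neuron-like and astrocyte-like cells. Bars are 1 SE, and filled points passed an adjusted p of 0.05. The filled points are PROX1 between the stages in all human cells and NR3C2 between the stages in astrocyte-like cells.

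Genes of the pathways around the 5 were counted by list, and members of the 5 are themselves on several of these lists. Between the sites in all human cells, edgeR called 0 of 4 tested dentate granule genes, 0 of 12 genes of Ammon's horn, 0 of 4 medial pallium genes, 0 of 11 retinoic acid genes, 0 of 8 frontal FGF genes, 0 of 7 corticosteroid genes, 0 of 6 genes of the cerebellin complex, 0 of 11 TALE homeobox genes and 0 of 8 caudal ganglionic eminence genes. In this fit 0.0827% of all genes tested passed, so counts of 0 in lists this short do not set them apart. The median log2 difference was -0.58 for the medial pallium list and 1.55 for the list of lateral ganglionic eminence and olfactory interneuron genes, beside 0.00 over all genes tested. ZBTB20 itself, at -0.45, was among the 4 medial pallium genes tested, so this median is not separate from its value. From the latter list 2 of 11 tested genes were higher in PFC, DLX2 and DLX5, which specify forebrain inhibitory neurons. The summed level of 7 inhibitory neuron markers over all human cells, DLX2 and DLX5 among them, moved with the site, from 5.6 CPM in HIP_2MPT to 20.9 CPM in PFC_2MPT and from 167.5 CPM in HIP_4MPT to 543.0 CPM in PFC_4MPT. Of 8 astrocyte fate genes, HES5, an effector of Notch signalling, was higher in PFC. Its levels were 36.01 CPM in HIP_2MPT, 1141 CPM in PFC_2MPT, 981.6 CPM in HIP_4MPT and 1504 CPM in PFC_4MPT (log2 difference 2.83, SE 0.60, edgeR adjusted p = 0.0434). HIP_2MPT stood far below the other 3 libraries, whereas HIP_4MPT and PFC_2MPT were close.

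The calls of genes other than the 5 were not followed through the alternatives. Between the sites in neuron-like cells, where 0.15% of all genes passed, the same list of interneuron genes had 3 of 11 tested genes higher in PFC, DLX2, DLX5 and SP9. HES5 was the remaining call over the 12 lists. In astrocyte-like cells, where 0.201% of all genes passed, HES5 was the sole call. TBR1, PROX1 and ZBTB20 are named in the study's text as genes that mark the regions in published mouse data, and none of them was called between the sites. TBR1 was singled out after its values were seen. TBR1, a factor of deep cortical layers, was 35.92 CPM in HIP_2MPT, 43.01 CPM in PFC_2MPT, 30.76 CPM in HIP_4MPT and 36.41 CPM in PFC_4MPT over all human cells (log2 difference of PFC minus HIP 0.30, SE 0.30, edgeR adjusted p = 1.0).

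Between the stages in all human cells, 2 of 4 tested dentate granule genes rose, PROX1 and C1QL2, where 2.49% of all genes passed. PROX1 is also on the list of caudal ganglionic eminence genes, in which it was the 1 call among 8 tested genes. C1QL2, a secreted synaptic protein of mossy fibres, was 0.3574 CPM in HIP_2MPT, 1.718 CPM in PFC_2MPT, 31.41 CPM in HIP_4MPT and 13.58 CPM in PFC_4MPT (log2 difference 4.39, SE 0.59, edgeR adjusted p = 0.00462). C1QL2 was led by astrocyte-like cells, in which it stood at 206.6 CPM in HIP_4MPT and 114.1 CPM in PFC_4MPT.

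Among corticosteroid genes 1 of 7 rose between the stages in all human cells, where 2.49% of all genes passed. It was NR3C1, the glucocorticoid receptor. Its level was 2.591 CPM in HIP_2MPT, 4.229 CPM in PFC_2MPT, 19.25 CPM in HIP_4MPT and 13.4 CPM in PFC_4MPT (log2 difference 2.30, SE 0.35, edgeR adjusted p = 0.00925). The counts of NR3C2 over all human cells were also higher at 4MPT, but the gene was not called there (edgeR adjusted p = 0.169). In neuron-like cells NR3C2 read lower at 4MPT in HIP and in PFC, within counting error. In astrocyte-like cells NR3C1 and NR3C2 were both called, 2 of 6 tested genes where 3.06% of all genes passed, NR3C2 with the limit of its filter given above. NR3C1 stood there at 3.989, 9.299, 26.86 and 27.12 CPM in the order HIP_2MPT, PFC_2MPT, HIP_4MPT and PFC_4MPT (log2 difference 1.88, SE 0.45, edgeR adjusted p = 0.0397).

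CBLN2 itself was untested, but a partner of cerebellins was read. NRXN3, a presynaptic neurexin, rose in all human cells, from 28.95 and 25.44 CPM at 2MPT in HIP and PFC to 134.3 and 350.6 CPM at 4MPT (log2 difference 3.24, SE 0.43, edgeR adjusted p = 0.00459). Among the 11 TALE homeobox genes, MEIS2 included, none was called in either contrast, with the median between -0.20 and 0.08 over the 3 cell sets.

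Among the remaining lists between the stages, CRABP1, a retinoic acid binding protein, fell by 5.35 on the log2 scale in all human cells (SE 1.11, edgeR adjusted p = 0.0357), from 8.757 CPM in HIP_2MPT and 0.9911 CPM in PFC_2MPT to 0.0466 CPM in HIP_4MPT and 0.1779 CPM in PFC_4MPT. CRABP1 passed the filter on low counts only through its 2MPT libraries, the group in which it was then called higher. Its call is therefore not independent of the filter, and most of its signal was in HIP_2MPT. Of the frontal FGF genes ETV1, SPRY2 and DUSP6 rose, 3 of 8, where 2.49% of all genes passed in all human cells. Of the list of lateral ganglionic eminence and olfactory interneuron genes 6 of 11 rose, DLX1, DLX2, DLX5, DLX6, SP9 and ETV1. The same 6 were called in neuron-like cells, where 0.898% of all genes passed. DLX6, at 0.08935 CPM in HIP_2MPT and 0.4625 CPM in PFC_2MPT over all human cells, passed the filter on low counts only through its 4MPT libraries. Its call is therefore also not independent of the filter. DLX1, DLX2, DLX5, DLX6 and SP9 had the same order of libraries as the number of inhibitory-neuron-like cells given above, whereas ETV1 was higher in HIP_4MPT (99.82 CPM) than in PFC_4MPT (55.92 CPM). No tested gene of Ammon's horn (12), of the medial pallium (4) or of astrocyte fate (8) was called between the stages in all human cells. The median log2 difference was 0.14 for Ammon's horn and -0.17 for the medial pallium, beside 0.00 over all genes tested.

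The genes with the most similar pattern were listed for each of the 5 by the Pearson correlation of log2 levels over 31 profiles, 1 per library and class with at least 50 cells, among 10227 genes. These profiles share libraries and depth, so the values are a description. ZBTB20 was closest to AP002026.1 (r = 0.834), the planar polarity cadherin CELSR1 (0.81) and the areal patterning factor NR2F1 (0.794). MEIS2 was closest to the microRNA host gene MIR99AHG (0.898), UBXN2A (0.841) and AC097376.3 (0.825). The genes closest to PROX1 included AC099792.1 (0.744) and LINC01748 (0.718). NR3C2 was closest to FIBIN (0.873), the BDNF receptor gene NTRK2 (0.866) and LRP1B (0.838), and CBLN2, near the floor of detection, reached 0.626 with SOX4. Among the 5 themselves the highest value was that of ZBTB20 and MEIS2 (0.572), and NR3C2 and MEIS2 had the lowest (-0.351).

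The mouse genes were read in 4961 host cells, 916 from HIP_2MPT, 772 from PFC_2MPT, 2071 from HIP_4MPT and 1202 from PFC_4MPT. No host cluster was named as mature neurons, and the neuron markers summed to 6.2 CPM in HIP_2MPT, 47.6 CPM in PFC_2MPT, 7.2 CPM in HIP_4MPT and 67.8 CPM in PFC_4MPT. A shallow cluster of 65 host cells, 62 of them from PFC_2MPT, was left unnamed. Its leading genes included Nrgn, Camk2a and Cck, and its content of neurons was not tested. No named class thus stood for the region's own neurons, in which these genes mark hippocampus and prefrontal cortex. The values by class are those of glia, immune, vascular and choroid plexus cells and of neuroblast-like cells. Those over all host cells also include unnamed cells. The mix of classes differed between libraries, since 469 of 474 choroid-plexus-like cells came from HIP_4MPT and 135 of 203 neuroblast-like cells from PFC_4MPT. The 115 lymphocyte-like host cells came mostly from HIP_2MPT (95 cells). They carried Cd3e and Nkg7, although SCID mice lack T cells, and their identity was not tested.

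Zbtb20 was present across host classes and highest in astrocyte-like and neuroblast-like cells. In host astrocyte-like cells it was 1112 CPM in HIP_2MPT (9 UMIs), 1111 CPM in PFC_2MPT (28 UMIs), 2083 CPM in HIP_4MPT (77 UMIs) and 1194 CPM in PFC_4MPT (395 UMIs). Pooled over the grafts the level was 1269 CPM in astrocyte-like, 1246 CPM in neuroblast-like, 336.8 CPM in oligodendrocyte-like and 193.8 CPM in microglia-like host cells. Host microglia-like cells, the class with the most cells, held 147.6 CPM in HIP_2MPT, 169.5 CPM in PFC_2MPT, 232.6 CPM in HIP_4MPT and 166.6 CPM in PFC_4MPT, and the ratio of PFC to HIP was 1.148 at 2MPT (interval 0.9047 to 1.464) and 0.7162 at 4MPT (0.608 to 0.8409). At 4MPT oligodendrocyte-like (ratio 0.704) and mural or fibroblast-like host cells (0.6326) were also lower in PFC beyond counting error. Over all host cells, whose mix of classes differed, Zbtb20 was higher in PFC, with ratios of 1.588 at 2MPT and 1.47 at 4MPT.

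Host oligodendrocyte-like cells held 134 of 307 Prox1 UMIs, the most of any host class, and microglia-like cells held 106. Its level in oligodendrocyte-like cells was 92.65 CPM in HIP_2MPT, 79.91 CPM in PFC_2MPT, 88.61 CPM in HIP_4MPT and 30.75 CPM in PFC_4MPT, and at 4MPT the ratio of PFC to HIP was 0.347 (interval 0.2051 to 0.5621). PFC_4MPT was the low library in this class and the other 3 lay close together. In microglia-like cells PFC was the higher site at 2MPT, with 34.98 CPM against 12.78 CPM in HIP (ratio 2.738, interval 1.322 to 6.37). At 4MPT their ratio was 1.167 (interval 0.6269 to 2.113). Over all host cells, whose mix of classes differed, the ratio was 2.483 at 2MPT (1.512 to 4.245) and 1.328 at 4MPT (0.9764 to 1.79). Neuroblast-like host cells held 72.1 CPM pooled, and there was no Prox1 UMI in 474 choroid-plexus-like and 159 endothelial-like cells.

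Nr3c2 was low in the host cells and stood pooled at 52.67 CPM in oligodendrocyte-precursor-like, 43.34 CPM in endothelial-like, 42.38 CPM in astrocyte-like and 41.29 CPM in mural or fibroblast-like cells, on 10 to 21 UMIs each. It was lower in oligodendrocyte-like (21.84 CPM), choroid-plexus-like (15.2 CPM) and neuroblast-like cells (6.409 CPM). In microglia-like cells it was 39.75 CPM in HIP_2MPT, 31.1 CPM in PFC_2MPT, 30.33 CPM in HIP_4MPT and 23.46 CPM in PFC_4MPT. The PFC libraries lay lower at each stage, but within counting error, while PFC_2MPT and HIP_4MPT were alike. The ratio of PFC to HIP was 0.7823 at 2MPT (interval 0.4707 to 1.317) and 0.7734 at 4MPT (interval 0.486 to 1.201).

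Meis2 was read largely in neuroblast-like host cells. Cluster 21 of the host cells, led by Dlx6os1, Gad2, Sp8 and Meis2, held 452 of 659 UMIs, at 1597 CPM pooled, and its cells numbered 0 and 1 in the HIP libraries at 2MPT and 4MPT, and 29 and 100 in the PFC libraries. Over all host cells Meis2 was 3.106 CPM in HIP_2MPT, 79.88 CPM in PFC_2MPT, 7.697 CPM in HIP_4MPT and 135.9 CPM in PFC_4MPT, ratios of PFC to HIP of 25.72 at 2MPT and 17.66 at 4MPT. Both PFC libraries were above both HIP libraries, and the number of cluster 21 cells had the same order of sites. In oligodendrocyte-like host cells at 4MPT the order was the other way, with 34.67 CPM in HIP and 5.857 CPM in PFC (ratio 0.1689, interval 0.04367 to 0.4713). Microglia-like cells held 2 UMIs. Cbln2 had 0 UMIs in all 4961 host cells, which allows up to 0.1883 CPM.

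Between the sites, host microglia-like cells were tested as the human cells were. None of 3 tested genes was called by edgeR, where 0% of all genes passed, with 0 at an unadjusted p under 0.05 and 0 called by DESeq2, while 267 of 8596 genes had an unadjusted p under 0.05 and DESeq2 called 3. The log2 differences of PFC minus HIP were -0.14 for Zbtb20 (SE 0.32, edgeR adjusted p = 1.0), 0.80 for Prox1 (SE 0.44, adjusted p = 1.0) and -0.35 for Nr3c2 (SE 0.34, adjusted p = 1.0). Meis2 and Cbln2 did not pass the filter on low counts.

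**Figure D5:**
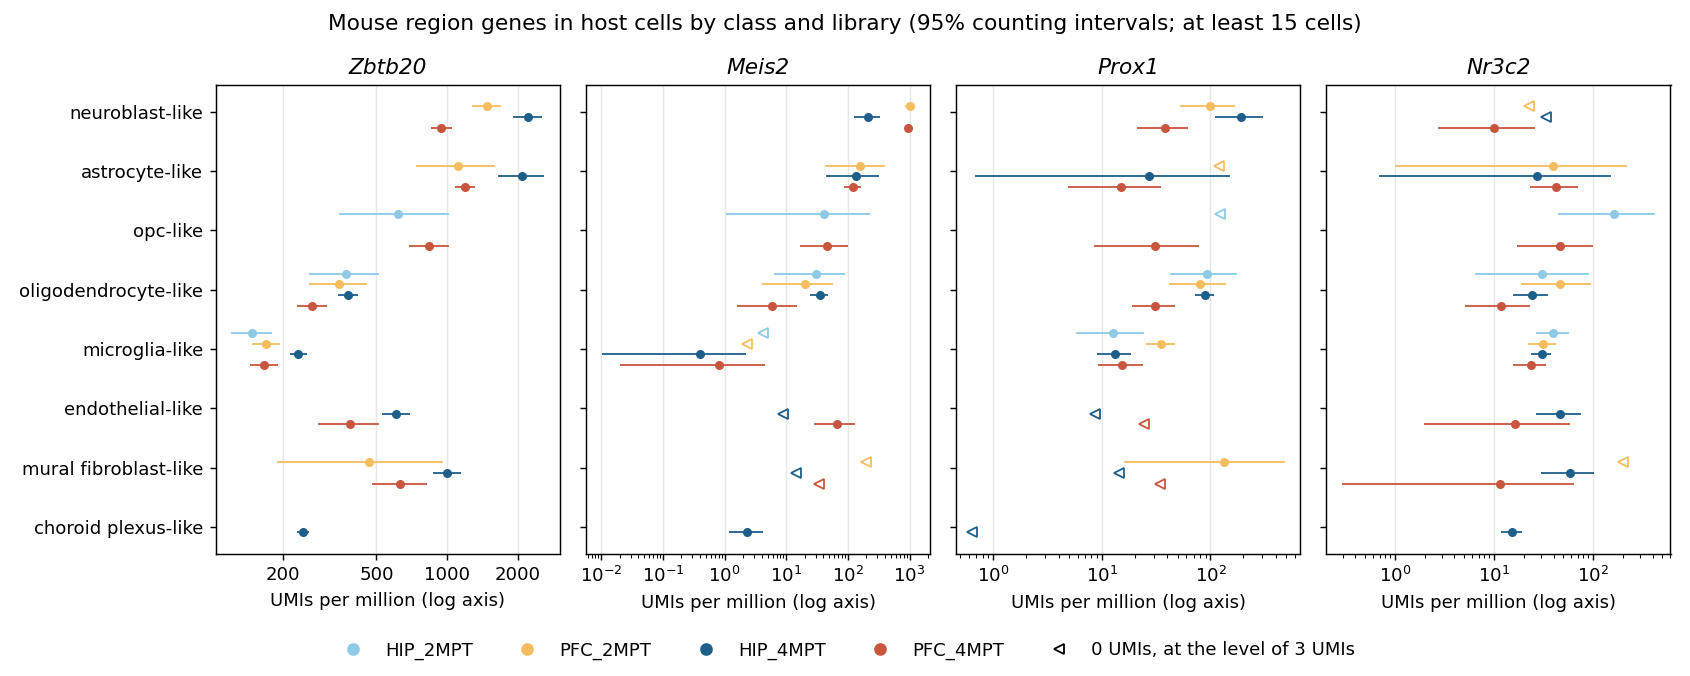
Levels of the mouse genes Zbtb20, Meis2, Prox1 and Nr3c2 (CPM of the class) in 8 host cell classes of the 4 graft libraries, for classes of at least 15 cells, with 95% counting intervals. Zbtb20 is highest in astrocyte-like and neuroblast-like cells, Meis2 in neuroblast-like cells, and Prox1 is read in oligodendrocyte-like cells of each library.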

How the data were processed

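Per the file headers, the authors' UMI counts came from Cell Ranger 3.1.0 (D0) and 5.0.0 (grafts), and the deposited matrices hold raw counts against GRCh38, and for grafts also against a joint human and mouse reference. The submitters' notes name Cell Ranger 3.1, and whether intronic reads were counted is not given in the sources used here. Cells kept as human had over 500 UMIs, over 500 genes and a log10 ratio of genes to UMIs over 0.8. Their mitochondrial share was under 0.15 and their human UMI share over 0.8. Barcodes below 0.2 in that last share were taken as host if their UMIs of mouse genes exceeded 500. The limits on genes, log10 ratio and mitochondrial share were not applied to host cells. Barcodes of mixed species were removed, and no caller of human doublets was run. Cells were clustered with Seurat 5.3.0 and sctransform 0.4.2 (2500 variable genes, 40 components, resolution 0.8), host cells with scanpy 1.11.5. UMI sums per library were tested with edgeR 4.0.16 (filterByExpr, TMM, Benjamini-Hochberg at 0.05) and DESeq2 1.42.0, after tests on simulated data. The libraries pool animals and are taken as replicates, so p-values measure only the spread between these libraries. Positions are from GENCODE. The genes named are the 5 members, their mouse genes, their antisense genes, called genes of 12 lists and the 5 most similar genes of each member, of which the first are printed. Members and lists were chosen with earlier results of these data known, and the list of region genes was reduced to the 4 that the study's text names after results were seen. Some genes that the rule names are not reported here. Alternatives changed the filters, clustering, tool, covariates and libraries.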

Additional observations from a re-analysis of the deposited data

Results flagged for a closer look

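The ratio of PFC to HIP differed in direction between the stages for MEIS2 and for ZBTB20 in progenitor-like cells. ZBTB20 also turned in cluster 12 (1.365 at 2MPT and 0.3862 at 4MPT) and in intermediate progenitor and newborn-neuron-like cells (1.221 and 0.5085). The ratio at 2MPT divided by the ratio at 4MPT was 3.66 for MEIS2 in all human cells, 4.28 in neuron-like, 3.76 in progenitor-like and 2.08 in astrocyte-like cells, and 2.77 for ZBTB20 in progenitor-like cells. Each rests on 1 library per site and stage, and the difference was not tested. The libraries also differed in depth and quality, with the lowest median UMIs per cell in HIP_2MPT (1253) and the highest median mitochondrial share in PFC_4MPT (7.31%), whose part in the result was not tested.

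UMIs were also counted for antisense genes of 2 members, which no comparison above used. Over all human cells of the 4 grafts, ZBTB20-AS5 was read at 118.0 CPM, ZBTB20-AS2 at 21.2 CPM, ZBTB20-AS1 at 11.5 CPM, ZBTB20-AS4 at 4.67 CPM, ZBTB20-AS3 at 1.9 CPM and PROX1-AS1 at 2.23 CPM. All 5 ZBTB20 antisense genes lie inside ZBTB20 on the plus strand, the strand opposite to ZBTB20. The use of strand in the counting is not described in the sources used here. Whether reads of ZBTB20 entered the counts of these genes was not tested. ZBTB20-AS5 stood at 52.27 CPM in HIP_2MPT, 86.61 CPM in PFC_2MPT, 156.4 CPM in HIP_4MPT and 141.4 CPM in PFC_4MPT, so its 4MPT libraries were above its 2MPT libraries, an order that ZBTB20 itself did not show. It had 8 UMIs in D0, where another software version counted the reads.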

How the results depend on the processing

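The counts of genes called over all genes tested moved most. For PFC against HIP, 15 genes were called in all human cells, against 7 under DESeq2, 36 with no filter on low counts, 0 without the stage, 33 at a human share over 0.9, 33 at a mitochondrial share under 0.10, 5 over 1000 UMIs per cell, 31 without cluster 8, and 0 to 13 without 1 library. In neuron-like cells 25 became 8 under DESeq2, 0 without the stage, 8 with the members left out of the variable genes, 5 without integration, 13 at resolution 1.6, and 0 to 9 without 1 library. In astrocyte-like cells 24 became 2 under DESeq2, 0 without the stage, 8 at a mitochondrial share under 0.10, 14 without integration, 3 over 1000 UMIs, and 0 to 5 without 1 library. For 4MPT against 2MPT the counts of 452, 150 and 366 in all human, neuron-like and astrocyte-like cells became 689, 373 and 236 under DESeq2, 1431, 879 and 766 with no filter, and 733, 459 and 625 with the graft site as a replicate block, which pairs libraries by site and not by animal. Without 1 library they ranged over 79 to 1548, 136 to 860 and 300 to 756, and without inhibitory-neuron-like cells the neuron-like count was 79. In host microglia-like cells 0 became 3 under DESeq2, 55 with no filter, 1 at a human share under 0.1, 1 over 1000 mouse UMIs, 21 without host cluster 2, and 0 to 396 without 1 library (147 without HIP_2MPT, 396 without HIP_4MPT). The causes were not tested.

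Of the log2 differences, 363 kept their direction and their side of the threshold, 20 reversed, 6 lost their call and 6 gained one. The block changed 1 call of the members, PROX1 in neuron-like cells (1.42, adjusted p = 0.0423). Without 1 library, the PFC minus HIP difference ranged from -0.58 to 0.71 for MEIS2 and from -0.69 to 1.04 for PROX1 in all human cells, from -0.80 to 0.93 and from -0.69 to 1.10 in neuron-like cells, and from -0.66 to 0.27, from -0.12 to 0.49 and, for NR3C2, from -2.93 to 1.91 in astrocyte-like cells. The MEIS2 value was -0.35 in all human and -0.37 in neuron-like cells without PFC_2MPT, and -0.02 in neuron-like cells without PFC_4MPT. The 4MPT minus 2MPT difference ranged from -0.11 to 0.92 for MEIS2 in all human cells and from -0.22 to 0.37 for ZBTB20 in astrocyte-like cells, and host Zbtb20 from -0.32 to 0.09. MEIS2 between the sites was also -0.08 and -0.20 in all human and neuron-like cells without the stage, -0.01 at a human share over 0.9 and -0.00 at a mitochondrial share under 0.10, and PROX1 was -0.10 in neuron-like cells without the inhibitory-neuron-like class.

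A lone library left in a group is assumed to vary like the others, and fits of the site without 1 library drop the stage. CBLN2 is limited by depth in each library.
The cells of cluster 8 and of host cluster 2, and the inhibitory-neuron-like cells, were left out as alternatives chosen after seeing the data, and NR3C2 fell below the filter in neuron-like cells without the latter.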
